A study of Mus musculus with 8 samples.

Results

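Transcript levels of 7 genes used as markers of haematopoietic stem cells or shared with endothelium (Procr, Slamf1, Esam, Robo4, Tek, Eng and Fgd5) were measured in sorted mouse bone marrow progenitors. The genes were found by matching the RefSeq transcript annotated to each non-control array probe, and each had 1 probe, so they are 7 of 20145 genes named on the array. The study has 8 one-colour Agilent arrays in 4 groups of 2: GMP from ACKR1-deficient (KO) mice, GMP from wild-type (WT) mice, LSK from KO mice and LSK from WT mice. ACKR1 takes up chemokines but, unlike their classical receptors, does not couple to G proteins. All mice were 12-week-old females, and KO mice and their WT littermates came from heterozygous breeding after more than 12 backcross generations onto C57Bl/6J; the allele is not given in the sources used here. GMP were sorted as lineage-negative, Sca1-negative, cKit-positive cells that carried CD34 and CD16/32, and LSK as lineage-negative, Sca1-positive, cKit-positive cells. Neither is a pure stem cell population, and the labels do not say whether an array held RNA of 1 animal or of a pool. P-values here therefore reflect just the spread among these arrays, and that spread may be technical.

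Most of these genes encode proteins at the surface of both blood stem cells and blood vessels. EPCR (Procr) binds protein C, CD150 (Slamf1) is a self-binding receptor used with other SLAM proteins to sort stem cells, ESAM is a junctional adhesion protein, ROBO4 is a roundabout family receptor, TIE2 (Tek) is the angiopoietin receptor and endoglin (Eng) is a co-receptor for ligands of the TGF-beta and BMP family. Fgd5 is set apart by its product, which is an exchange factor inside the cell that activates CDC42 and not a surface receptor, although its locus has been used to mark mouse stem cells.

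Sequences around the start sites are shown for the 3 genes that passed the test between WT populations and have a promoter entry, and for Eng, which did not pass it. They run from 250 bases before to 50 after the RefSeq start site on GRCm38.p6, and entries were matched by symbol for 6 of the 7 genes, the other being Esam. All lie on the plus strand, at chr2:155750967-155751266 (Procr), chr1:171766882-171767181 (Slamf1), chr9:37401722-37402021 (Robo4) and chr2:32646345-32646644 (Eng). Capitals mark any match, on either strand, to 4 searched motifs. AGATAA stands for a GATA factor site and AGGAAG for an ETS factor site. GGGCGG stands for an SP1 site, and the E-box CAGCTG reads the same on both strands.
Procr: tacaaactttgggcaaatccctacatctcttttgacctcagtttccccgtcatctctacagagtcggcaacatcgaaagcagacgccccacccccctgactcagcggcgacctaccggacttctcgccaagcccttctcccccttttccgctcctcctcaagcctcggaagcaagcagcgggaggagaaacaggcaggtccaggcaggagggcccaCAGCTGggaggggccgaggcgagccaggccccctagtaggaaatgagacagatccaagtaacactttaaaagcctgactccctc
Slamf1: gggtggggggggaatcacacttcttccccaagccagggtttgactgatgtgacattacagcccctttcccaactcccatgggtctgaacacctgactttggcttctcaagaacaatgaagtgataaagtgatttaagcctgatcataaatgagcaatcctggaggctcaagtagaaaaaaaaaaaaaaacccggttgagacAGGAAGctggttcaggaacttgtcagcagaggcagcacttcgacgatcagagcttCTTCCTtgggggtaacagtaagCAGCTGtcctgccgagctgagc
Robo4: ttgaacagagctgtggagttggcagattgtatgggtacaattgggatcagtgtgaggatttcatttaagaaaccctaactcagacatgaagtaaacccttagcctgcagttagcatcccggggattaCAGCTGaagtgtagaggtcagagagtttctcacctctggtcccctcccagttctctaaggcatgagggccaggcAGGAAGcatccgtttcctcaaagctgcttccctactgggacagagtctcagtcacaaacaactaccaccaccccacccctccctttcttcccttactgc
Eng: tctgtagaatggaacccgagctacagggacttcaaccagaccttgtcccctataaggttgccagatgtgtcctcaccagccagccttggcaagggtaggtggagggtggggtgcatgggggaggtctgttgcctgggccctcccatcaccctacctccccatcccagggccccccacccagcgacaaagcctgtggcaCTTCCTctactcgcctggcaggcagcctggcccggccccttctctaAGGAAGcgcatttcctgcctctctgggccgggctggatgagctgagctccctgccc
The E-box CAGCTG was found in the promoters of Procr, Slamf1 and Robo4 and in none of the other 3, against 16.3% of all 32851 promoters. AGGAAG was found for Slamf1, Robo4, Eng and Fgd5 (35.4% of all promoters), AGATAA for Tek (11.2%) and GGGCGG for Fgd5 (35.7%). No match overlapped another in the printed sequences. On the gene map of the same assembly, Esam and Robo4 lie on chromosome 9 with 2 genes between them, and Slamf1 lies on chromosome 1, as does Ackr1, with 56 genes between them.

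Levels are given as log2 processed signal relative to each array's own 75th percentile, so a level of 0 equals that percentile, and the 2 values of a group are replicates 1 and 2. A probe is well above background where Agilent's software calls its signal so. On 7 arrays 62.5% to 73.1% of spots were well above background, whereas KO LSK replicate 2 had 34.3% and its 75th percentile was 24.6, against 197 to 770 on the others. The lowest signal on that array lies at a level of −3.49, so none of its probes can read below it. The replicates of a group correlated at 0.898 in KO GMP, 0.976 in WT GMP, 0.78 in KO LSK and 0.948 in WT LSK (across features, a description). All arrays shared 1 slide, with KO in its column 1 and WT in its column 2, and position by column cannot be told apart from genotype. The Ackr1 probe did not separate the genotypes (difference of 0.36 in GMP, limma adjusted p = 1, and of 0.08 in LSK, adjusted p = 0.954), and the sources used here do not say whether it lies in the deleted part. Mature neutrophil markers summed to 1250 to 3330 times the percentile on the 4 KO arrays and 3.26 to 16.8 on the 4 WT arrays, and erythroid markers to 496 to 1030 and 7.84 to 22.1. Of the sort antigens, Fcgr3, which encodes CD16, was higher by 5.94 in WT GMP than in WT LSK (limma adjusted p = 0.0282), while Ly6a, which encodes Sca1, differed by 0.16 (95% confidence interval −2.04 to 2.35, adjusted p = 1).

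**Figure D1:**
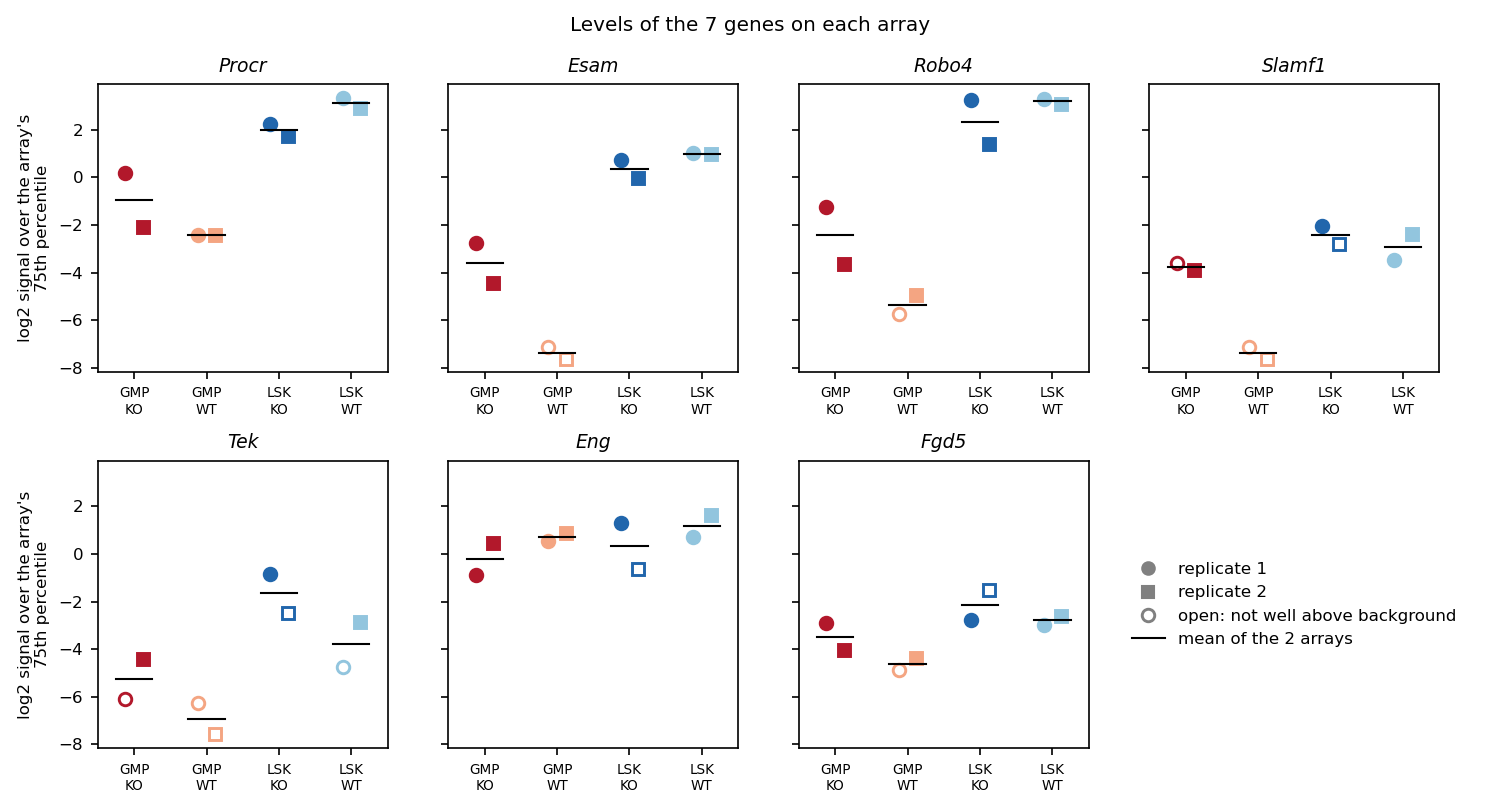
Level of each of the 7 genes on each array (vertical axis, log2 signal over the array's 75th percentile), by group, with replicate 1 as a circle, replicate 2 as a square and open symbols not well above background. Procr, Esam and Robo4 are high on all 4 LSK arrays, Esam and Slamf1 lie at −7.11 and −7.62 in WT GMP, and Eng overlaps between the populations.

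The first comparison asked how the genes differed between GMP and LSK of WT mice. Robo4, Esam, Procr and Slamf1 were lower in WT GMP than in WT LSK, Fgd5 and Tek did not pass the test, and the Eng arrays overlapped. In all, 4 of the 6 genes that passed the filter on dim probes fell and none rose, where 1.36% of all 28078 features tested fell and 0.502% rose. The filter kept a probe that was well above background on both arrays of 1 group or more, and a feature was called in limma when its p, adjusted by Benjamini-Hochberg, was under 0.05. The median difference of the 6 genes was −5.01 and that of all features 0.01. Tek did not pass the filter and was tested in a fit with no filter. Slamf1 passed only through WT LSK. In bulk populations, fewer cells that express a gene and less RNA per cell cannot be told apart.

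Robo4, the roundabout receptor, had levels of −1.24 and −3.63 in KO GMP, −5.72 and −4.96 in WT GMP, 3.26 and 1.42 in KO LSK and 3.31 and 3.1 in WT LSK. All 4 LSK arrays lay above all 4 GMP arrays, KO and WT LSK arrays overlapped, and within GMP both KO arrays lay above both WT arrays. It was lower by −8.55 in WT GMP than in WT LSK (SE 0.929, 374-fold, limma adjusted p = 0.00367, n = 2 each). In WT GMP 1 of the 2 arrays was well above background.

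Esam, which joins cells at junctions, had levels of −2.77 and −4.43 in KO GMP, −7.11 and −7.62 in WT GMP, 0.73 and −0.04 in KO LSK and 1.03 and 0.97 in WT LSK. The WT GMP values are the lowest processed signals on those arrays, so they carry no order, and every other array was well above background. The groups did not overlap and ran, high to low, WT LSK, KO LSK, KO GMP and WT GMP. On the processed signal, Esam was at least 121-fold lower in WT GMP than in WT LSK (fitted difference −8.37, SE 0.739, limma adjusted p = 0.00352). A lower bound of this kind sets the brighter group's mean against the higher of the probe's own level and the lowest level that was well above background, averaged over the dim group's arrays. It is approximate, since a probe that was not well above background can lie above that lowest level. It also applies only to the processed signal. With normexp background correction the fitted Esam difference was −3.92, smaller in size than the bound of 6.92 on the log2 scale. Among the 7 genes Esam alone kept its call under all 21 alternatives tried for this comparison, with differences of −8.62 to −3.92.

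Procr, the protein C receptor, was well above background on all 8 arrays. Its levels were 0.20 and −2.10 in KO GMP, −2.41 and −2.43 in WT GMP, 2.23 and 1.73 in KO LSK and 3.36 and 2.92 in WT LSK. The 4 groups kept the order WT LSK, KO LSK, KO GMP and WT GMP with no overlap between neighbours. The difference of −5.56 between WT GMP and WT LSK was a 47.3-fold fall (SE 0.81, limma adjusted p = 0.00994).

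Slamf1, the CD150 gene, had levels of −3.61 and −3.88 in KO GMP, −7.11 and −7.62 in WT GMP, −2.02 and −2.80 in KO LSK and −3.45 and −2.38 in WT LSK. As for Esam, both WT GMP values were the array minimum and carry no order. The signal was well above background on 4 of 8 arrays: KO GMP replicate 2, KO LSK replicate 1 and both WT LSK arrays. Of these the KO GMP array was the lowest. On the processed signal, Slamf1 was at least 8-fold lower in WT GMP than in WT LSK (fitted difference −4.45, SE 0.684, limma adjusted p = 0.0118).

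Tek, the angiopoietin receptor, was well above background on 3 of 8 arrays, with no group measured on both. Its levels were −6.11 and −4.41 in KO GMP, −6.27 and −7.57 in WT GMP, −0.85 and −2.47 in KO LSK and −4.73 and −2.87 in WT LSK. Without the filter it differed by −3.12 between WT GMP and WT LSK (95% confidence interval −5.44 to −0.81, limma adjusted p = 0.447 over 37195 features, of which 0.425% were called lower). The other 5 arrays, both WT GMP arrays among them, give background values, so the groups were not put in order.

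Fgd5, the exchange factor, had levels of −2.90 and −4.05 in KO GMP, −4.87 and −4.36 in WT GMP, −2.79 and −1.53 in KO LSK and −2.97 and −2.61 in WT LSK. LSK arrays lay above GMP arrays within each genotype, but across genotypes WT LSK replicate 1 lay below KO GMP replicate 1. The KO and WT LSK arrays overlapped, and both KO GMP arrays lay above both WT GMP arrays. The difference between WT GMP and WT LSK was −1.82 (95% confidence interval −3.45 to −0.19, limma adjusted p = 0.478), which passed the test only with array weights (adjusted p = 0.033).

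Eng, the endoglin gene, had levels of −0.90 and 0.46 in KO GMP, 0.55 and 0.90 in WT GMP, 1.29 and −0.63 in KO LSK and 0.72 and 1.62 in WT LSK. Both KO GMP arrays lay below both WT GMP and both WT LSK arrays, and the other pairs of groups overlapped. WT GMP differed from WT LSK by −0.45 (95% confidence interval −2.31 to 1.42, limma adjusted p = 1), so a difference of up to 2.31 on the log2 scale is within the interval. The WT GMP arrays did not overlap the WT LSK arrays, and were lower, for 5 of the 6 genes that passed the filter, all but Eng, as for 20.2% of all features.

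The calls for Procr and Slamf1 were lost when any 1 of the 4 WT arrays was left out (adjusted p 0.0731 to 0.112 for Procr and 0.0777 to 0.159 for Slamf1), and that for Robo4 without WT LSK replicate 1 (adjusted p = 0.0507). With normexp background correction Slamf1 differed by −1.26 (adjusted p = 0.814), Esam by −3.92 and Robo4 by −5.86. Endothelial markers summed to 64.4 and 66.8 in WT GMP and 139 and 137 in WT LSK, and without Egfl7 to 53.0 and 56.1 and to 46.7 and 48.4. The brightest genes left were Icam2 (5.13 and 5.18 in WT GMP, 4.86 and 4.88 in WT LSK) and Kdr (3.81 and 3.98, 3.49 and 3.49). Dimmer markers barely move these sums. Emcn, at −4.58 and −3.73 in WT GMP and −1.09 and −0.23 in WT LSK, differed by −3.49 (limma adjusted p = 0.0629). Erg had −0.63 and −0.76 in WT GMP and 1.51 and 1.22 in WT LSK. Of the 16 tested markers, 8 were higher in WT GMP. Of that list of 18 genes, 16 were well above background on each WT GMP array, and 14 and 17 on the WT LSK arrays. Cdh5, which encodes VE-cadherin, was well above background on 1 of these 4 arrays, WT LSK replicate 2, whereas Kdr, which encodes a VEGF receptor, was so on all 4. The part of other cell types in the result was not tested.

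**Figure D2:**
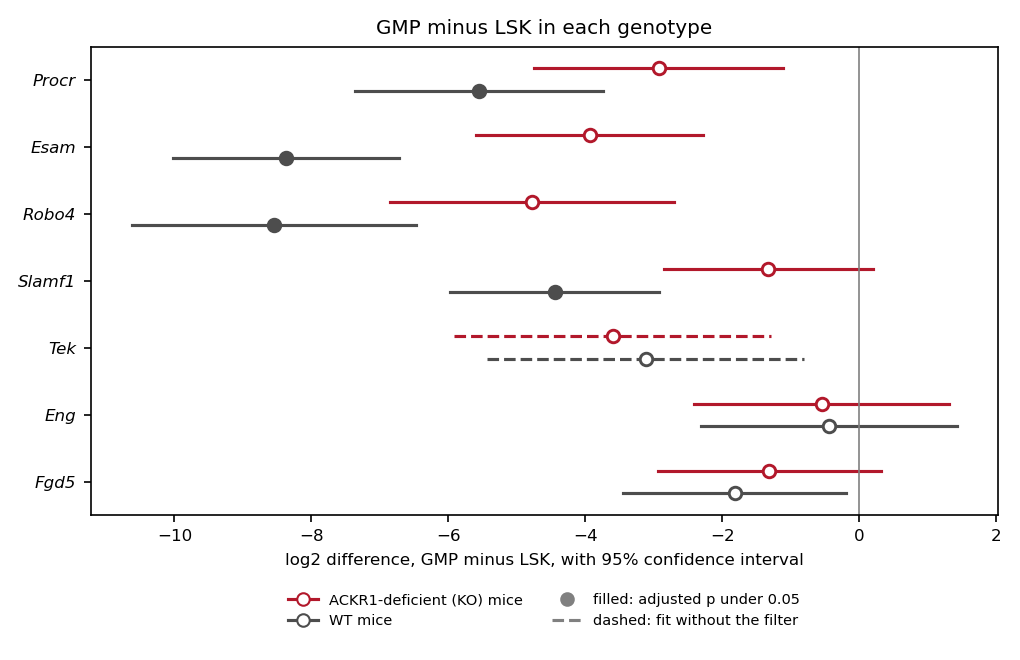
Difference between GMP and LSK for each gene (horizontal axis, log2, with 95% confidence interval) in KO mice and in WT mice, with filled symbols for adjusted p under 0.05 and dashed lines for Tek, fitted without the filter. Robo4, Esam, Procr and Slamf1 are filled in WT mice, and no symbol is filled in KO mice.

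In KO mice none of the 7 genes passed the test between GMP and LSK. The arrays did not overlap for 5 of the 6 genes that passed the filter, all but Eng, where 18.6% of all features were lower without overlap. For Slamf1 this carries no weight, since both KO GMP values lie below the lowest level KO LSK replicate 2 can give. Fgd5 was not well above background on KO LSK replicate 2 either, so the place of that array above KO GMP is not read as a higher level. The differences between KO GMP and KO LSK were −4.78 for Robo4 and −3.94 for Esam (limma adjusted p = 0.14 for each), −2.93 for Procr (0.165), −1.33 for Slamf1 (0.353), −1.32 for Fgd5 (0.386) and −0.55 for Eng (0.751). Tek differed by −3.60 in the fit without the filter (adjusted p = 0.317), with both KO GMP values also below that lowest level. At an unadjusted p under 0.05, 3 of the 6 were lower (Robo4, Esam and Procr), as were 7.12% of all features, and at the adjusted threshold 0% of features were called. Without KO LSK replicate 1, which leaves KO LSK as the 1 array with weak signal, assumed to vary like the other groups, Robo4 and Esam passed (adjusted p = 0.0468 and 0.0368), in a fit that called 2112 features lower and 2144 higher. Robo4 also passed with normexp (0.0307) and with the KO arrays alone (0.019). Of all 28078 features, the normexp fit called 61 lower and 787 higher. The fit of the KO arrays alone called 111 lower and 19 higher.

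Genes from the pathways around these receptors are given from lists compiled with earlier results of these data known. Between WT GMP and WT LSK, where 1.36% of all features fell, 1 of 10 tested genes of protein C signalling fell and none rose. This was F2r, the thrombin receptor PAR1, through which EPCR-bound activated protein C signals. F2r had levels of 2.31 and 0.25 in KO GMP, −2.97 and −2.68 in WT GMP, 2.35 and 0.21 in KO LSK and 1.87 and 2.28 in WT LSK. Thus WT GMP alone stood below the other groups, with a difference from WT LSK of −4.90 (SE 0.908, limma adjusted p = 0.0262). The list's median difference was 0.10, against 0.01 for all features. None of 4 tested genes around TIE2 passed: Angpt1, the activating ligand, had levels of 5.58 and 2.62 in KO GMP, 0.33 and 0.80 in WT GMP, 4.83 and 3.59 in KO LSK and 4.75 and 4.84 in WT LSK. Its difference between WT GMP and WT LSK was −4.23 (adjusted p = 0.0634), and Tie1, the partner receptor, differed by −0.91 (adjusted p = 1).

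Of 9 tested junctional adhesion genes, which are related to Esam in structure or place, 2 fell and none rose between WT GMP and WT LSK. The list median was −1.32, and 1.36% of all features fell. F11r, which encodes JAM-A, had levels of −3.46 and −3.25 in WT GMP and 1.11 and 1.81 in WT LSK (difference −4.82, limma adjusted p = 0.0108). Jam3, which encodes JAM-C, had −4.70 and −4.07 in WT GMP and −0.92 and −0.08 in WT LSK (difference −3.89, adjusted p = 0.0351). None of 18 genes of the TGF-beta and BMP receptor list around endoglin, 7 of the SLAM family list, 6 of the SLIT and ROBO list or 13 of the FGD and CDC42 list passed. The smallest p in each belonged to Tgfbr3, the betaglycan co-receptor related to endoglin (difference −3.07, adjusted p = 0.114), Sh2d1b1, a SLAM adaptor (3.60, 0.571), Robo3 (−1.76, 0.337) and Cdc42ep4, a CDC42 effector (1.59, 0.457).

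Among other surface genes of stem cells and multipotent progenitors, Flt3 and Il7r fell between WT GMP and WT LSK and none rose. The list had 18 tested genes with a median difference of −0.90, against 0.01 for all features. Of the 18, 6 differed by more than 0. Of all features, 1.36% fell. Flt3, the cytokine receptor of multipotent progenitors, had −0.81 and −0.87 in WT GMP and 4.65 and 5.65 in WT LSK (difference −5.99, limma adjusted p = 0.0166). Il7r, the interleukin 7 receptor, was at the array minimum on both WT GMP arrays, as Esam and Slamf1 were. On the processed signal it was at least 13.9-fold lower there than in WT LSK (limma adjusted p = 0.00994). In the other direction, 4 of 8 genes of GMP identity were higher in WT GMP, where 0.502% of all features rose. These were Ms4a3 (7.68, limma adjusted p = 0.00427), Elane, the neutrophil elastase gene (7, 0.00352), Ctsg, the cathepsin G gene (5.77, 0.00835) and Csf1r, the macrophage colony-stimulating factor receptor (3.5, 0.0431). Of 16 tested endothelial markers only Egfl7, a secreted protein of vessels and progenitors, fell (−3.03, adjusted p = 0.0458), and the list's median was −0.01.

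**Figure D3:**
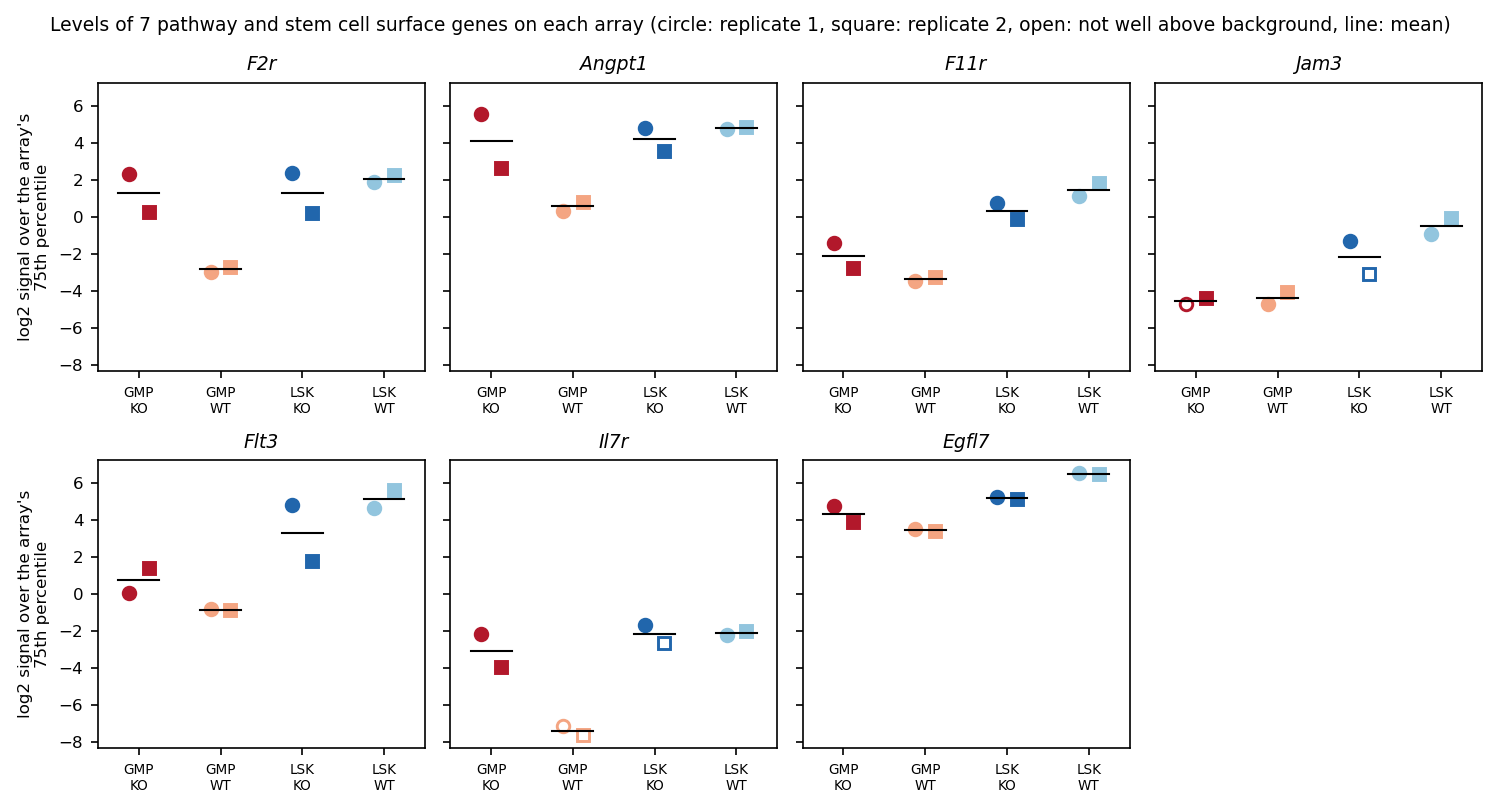
Level of 7 other genes of the pathways and of stem cell surfaces on each array (vertical axis, log2 signal over the array's 75th percentile), by group, with symbols as in the plot of the 7 genes. F2r and Angpt1 lie above both WT GMP arrays on both KO GMP arrays, and Il7r is open at −7.11 and −7.62 in WT GMP.

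The next comparison asked what changed in GMP of KO mice. No gene of the 7 passed the test, although 5 of the 6 that passed the filter were higher on both KO GMP arrays than on both WT GMP arrays, where 20.1% of all features were higher without overlap. Eng was lower on both (19.5% of all features). The differences between KO GMP and WT GMP were 3.77 for Esam (SE 0.739, 95% confidence interval 2.12 to 5.42, limma adjusted p = 0.139) and 3.62 for Slamf1 (SE 0.684, 2.09 to 5.15, adjusted p = 0.116). WT GMP lay at the array minimum for both genes. Set against the lowest level well above background there, Esam was at least 4.97-fold higher in KO GMP on the processed signal. Both KO GMP arrays were well above background for Esam. The same figure for Slamf1 was 4.49-fold. It is no lower bound, since 1 of the 2 KO GMP arrays was not well above background. Robo4 differed by 2.91 (adjusted p = 0.735), Procr by 1.47 (0.955), Fgd5 by 1.14 (0.955) and Eng by −0.95 (0.958), while Tek differed by 1.66 without the filter (adjusted p = 1), where 0.0242% of features were called higher. The median difference of the 6 genes was 2.19, against 0.16 for all features. At an unadjusted p under 0.05, 3 of the 6 were higher (Esam, Slamf1 and Robo4), as were 3.42% of all features, and 0.146% of features were called higher. The WT GMP arrays enter this comparison as well as the one between WT GMP and WT LSK, so the 2 sets of differences share them.

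Within each slide row, which held 1 KO and 1 WT array of GMP, the difference was 4.34 and 3.19 for Esam, 3.5 and 3.74 for Slamf1, 4.48 and 1.33 for Robo4, 2.61 and 0.33 for Procr, 1.97 and 0.31 for Fgd5 and −1.45 and −0.44 for Eng. With slide row as a block, Esam (adjusted p = 0.0265) and Slamf1 (adjusted p = 0.0424) passed and were higher in KO GMP, in a fit that called 0.652% of all features higher and gave each of the 6 genes the same SE, 0.996. Without KO GMP replicate 1, Procr differed by 0.32, Robo4 by 1.71, Esam by 2.94, Slamf1 by 3.49, Fgd5 by 0.56 and Eng by −0.27. With normexp, Esam differed by 0.99, Slamf1 by 1.01 and Robo4 by 0.98.

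Summed levels of markers of other cells are given beside these values. Megakaryocyte and platelet markers (10 genes) summed to 36.9 and 9.45 in KO GMP, 1.75 and 2.33 in WT GMP, 18.4 and 8.30 in KO LSK and 19.5 and 24.7 in WT LSK. In KO GMP 7 and 10 of the 10 were well above background, and in WT GMP 9 on each array, and none of the 10 was called between KO GMP and WT GMP. KO GMP replicate 1 was the higher array of its group for this sum and for Procr, Esam, Robo4, Slamf1 and Fgd5. The order is not particular to megakaryocyte markers. KO GMP replicate 1 was also higher for the neutrophil (3330 and 1250), erythroid (1030 and 780) and GMP identity (2890 and 1780) sums. It was lower for the stromal, B cell, T and NK cell and FGD and CDC42 sums. It was the lower array for Eng and Tek, and Slamf1 and Tek were not well above background on it. Endothelial markers (18 genes) summed to 79.2 and 76.6 in KO GMP and to 64.4 and 66.8 in WT GMP, with 14 above background on each KO GMP array. Without Egfl7 the sums overlapped, at 52 and 61.6 in KO GMP and 53 and 56.1 in WT GMP, and the list's median difference was 0.04, against 0.16 for all features. The brightest genes left in these sums were Icam2 (5.31 and 4.97 in KO GMP, 5.13 and 5.18 in WT GMP) and Kdr (2.95 and 4.67, 3.81 and 3.98). Stromal markers (10 genes) summed to 13.4 and 17.2 in KO GMP and to 7.22 and 9.16 in WT GMP. No endothelial or stromal marker was called either. Whether such cells, or the neutrophil and erythroid signal of all KO arrays, contributed to the levels of the 7 genes was not tested.

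**Figure D4:**
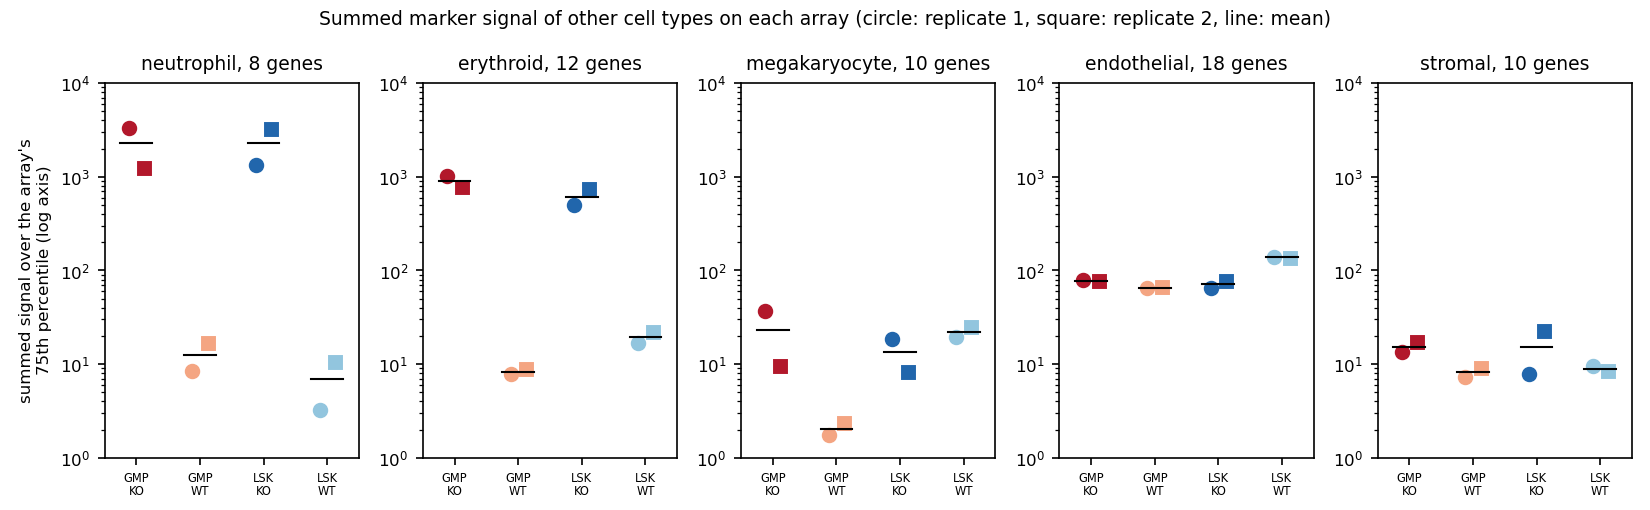
Summed signal of 5 marker lists on each array (vertical axis on a log scale, signal over the array's 75th percentile), by group, with replicate 1 as a circle and replicate 2 as a square. Neutrophil and erythroid sums are high on all 4 KO arrays, and the megakaryocyte sum is lowest on the 2 WT GMP arrays.

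In LSK none of the 7 genes passed the test between KO and WT, where 0.239% of all features were called higher and 0% lower. Nor did any of the 6 filtered genes reach an unadjusted p under 0.05, as 5.45% of all features did on the higher and 3.38% on the lower side. Procr and Esam were lower on both KO LSK arrays than on both WT LSK arrays, as were 21.1% of all features, and the arrays overlapped for the other 4 tested genes. The differences between KO LSK and WT LSK were −1.16 for Procr (95% confidence interval −2.97 to 0.65, limma adjusted p = 0.593), −0.86 for Robo4, −0.84 for Eng, −0.66 for Esam, 0.50 for Slamf1 and 0.63 for Fgd5, with adjusted p of 0.668 to 0.737. Tek, with 1 array of each group well above background, differed by 2.14 in the fit without the filter (95% confidence interval −0.17 to 4.45, adjusted p = 0.399), where 0.0161% of features were called higher. The lowest level KO LSK replicate 2 can give lies above the Tek value of WT LSK replicate 1, so no direction is read from it. The array with weak signal, KO LSK replicate 2, was not well above background for Slamf1, Tek, Eng or Fgd5. Without it Robo4 differed by 0.06 and Eng by 0.12, so the sign of both rests on that array, while Slamf1 differed by 0.89, Esam by −0.27, Fgd5 by 0.01 and Procr by −0.91.

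Averaged over both populations, no gene of the 7 passed between KO and WT, where 0.595% of all features were called higher and 0.00712% lower. At an unadjusted p under 0.05, Slamf1 and Esam, 2 of the 6, were higher, as were 6.8% of all features. Slamf1 had a difference of 2.06 (SE 0.484, limma adjusted p = 0.175), Esam of 1.56 (SE 0.522, 0.366), Robo4 of 1.02 (0.54), Fgd5 of 0.89 (0.5), Procr of 0.15 (0.92) and Eng of −0.89 (0.551). The genotype difference in LSK minus that in GMP was −4.43 for Esam (unadjusted p = 0.00182), −3.77 for Robo4 (0.0171), −3.12 for Slamf1 (0.00935) and −2.63 for Procr (0.0452). None passed after adjustment (limma adjusted p = 0.961 for each of these 4), and 0% of all features did. At an unadjusted p under 0.05, 4 of 6 genes were lower in this contrast, against 1.41% of all features. WT GMP, at the array minimum for Esam and Slamf1, enters these values. With normexp the contrast was −0.18 for Slamf1, −1.58 for Esam, −2.62 for Robo4 and −2.60 for Procr, and the averaged difference was 0.20 for Esam, 0.92 for Slamf1 and −0.33 for Robo4. Eng had a value of 0.11 and Fgd5 of −0.51 (adjusted p = 0.993 and 0.961, 95% confidence intervals −2.53 to 2.74 and −2.81 to 1.80).

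**Figure D5:**
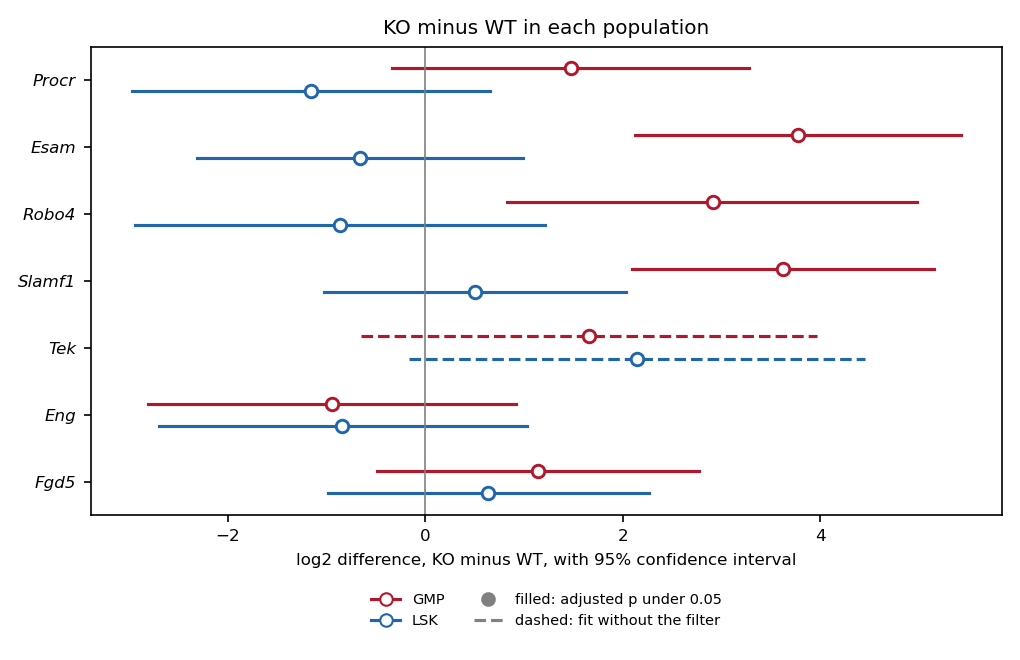
Difference between KO and WT for each gene (horizontal axis, log2, with 95% confidence interval) in GMP and in LSK, with Tek fitted without the filter (dashed). No symbol is filled, since no gene had an adjusted p under 0.05, and the GMP intervals of Esam, Slamf1 and Robo4 lie above 0 before adjustment.

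The 7 genes were compared with each other and with all 15846 other named features by their profile over the 8 arrays, as a description. The points share arrays, and for most of the genes they differ by population. The Eng arrays overlapped between the populations, and its lowest were KO GMP replicate 1 (−0.90) and KO LSK replicate 2 (−0.63). Robo4 correlated with Procr and with Esam at r of 0.986, and Procr with Esam at 0.97, whereas Eng had r between −0.268 and 0.242 with the other 6. The profiles most like each gene belonged to Rnf150, Trib3 and Mn1 for Procr (r of 0.996, 0.993 and 0.992), Vldlr, Gata3 and Clnk for Esam (0.998, 0.998 and 0.997) and Mcoln2, Gm5458 and Gm2897 for Robo4 (0.998, 0.995 and 0.993). For Slamf1 they were Slc14a1, Gp9 and Rag1 (0.989, 0.984 and 0.98), for Fgd5 Stab2, Gbp8 and Mmp17 (0.986, 0.975 and 0.974) and for Eng Tha1, Zfp275 and Il15 (0.988, 0.979 and 0.975). Rag1 and Gbp8 lay at the array minimum on both WT GMP arrays, and Gata3 and Mn1 on WT GMP replicate 1. Their r values rest in part on such values. On KO LSK replicate 2, the array with weak signal, Fgd5 (−1.53) and Stab2 (−0.96) had their highest values and Eng had −0.63. None of these 3 was well above background there. Tha1, Zfp275 and Il15 read −3.24, −2.75 and −2.76 on that array. The r values for Fgd5 and Eng rest in part on it. The profile nearest to the mean of the 6 filtered genes was that of Mcoln2 (r of 0.996), with levels of 0.65 and −0.37 in KO GMP, −1.50 and −1.33 in WT GMP, 3.25 and 2.34 in KO LSK and 3.09 and 2.94 in WT LSK. Gp9, a subunit of the platelet glycoprotein Ib complex, had levels of 0.32 and −0.34 in KO GMP, −1.93 and −1.82 in WT GMP, 0.83 and 0.33 in KO LSK and 0.32 and 0.83 in WT LSK, so that WT GMP alone stood low. WT GMP was lowest for Slamf1 too, but both KO GMP values of Slamf1 also lay below those of all LSK arrays. KO GMP replicate 1 and KO LSK replicate 2 were not well above background for Slamf1.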

How the data were processed

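Per the file headers, scans were quantified by Agilent's Feature Extraction software, version 10.7.3.1, for an mm9 design, and the deposited processed signal is a background-corrected intensity on a linear scale. The authors' deposited normalized table holds log2 values, which matched the scanner log2 values centred on each probe's median (r of 0.999687 to 0.999965), with column medians of 0.32 and −0.11 in KO GMP, −0.13 and −0.14 in WT GMP, 0.04 and 1.25 in KO LSK and 0.12 and −0.27 in WT LSK. Feature Extraction had detrended 3 arrays, all KO. Here control and outlier spots were dropped and log2 signal was taken minus the array's 75th percentile. Of 55681 probes, 39083 were kept, being measured on every array and bright enough on both of any group's arrays. Probes were named by accession from an NCBI RefSeq table (GRCm38.p6, 47.7% matched), with the brightest probe per gene, giving 28078 features. Differences were tested with limma 3.58.1 (R 4.3.3; 4 group means, 4 residual and 5.76 prior degrees of freedom), after tests on simulated data. The normexp alternative (offset 50) used median signals, since no mean signal column was found. Lists were described by counts. Named genes are the 7 genes, up to 4 called genes or 2 with the smallest p per list, and the 3 closest profiles (5 for the mean). The 7 genes and the 18 lists were chosen with earlier results of these data known. The number of arrays limits the precision. The result of 1 list gene is not reported here.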

Additional observations from a re-analysis of the deposited data

How the results depend on the processing

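Between WT GMP and WT LSK, 4 genes were called, against 2 with quantile normalization, 3 with normexp or median scaling, 5 with array weights and 1 to 4 when 1 array was left out. Slide row as a block called 2 genes between KO GMP and WT GMP and 0 in the other 3 genotype contrasts; it was not run for GMP against LSK, since each row held 1 population. Between KO GMP and KO LSK the count was 0, against 1 with normexp, 1 with the KO arrays alone and 0 to 2 with 1 array left out. The other genotype comparisons called 0 under every alternative, including left-out arrays. Replicate number as a block gave 4 between WT GMP and WT LSK and 0 elsewhere and changed no call. Same-numbered KO and WT arrays of a population shared a slide row, but their deviations did not go together in every pair (r of −0.344 in LSK and 0.262 in GMP; −0.133 and −0.0524 between populations), so numbers were not taken as pairs. Values that changed sign, none of them called and the cause not tested, follow, with the lowest and highest value when 1 array was left out. Between KO LSK and WT LSK, Slamf1 was −0.35 with quantile normalization, −0.07 with median scaling, −0.03 to 1.03 with an array left out (lowest without WT LSK replicate 1) and −0.05 with signal before detrending, an alternative chosen after seeing the data. There Robo4 was 0.06 and Eng 0.12 without KO LSK replicate 2, alone or together with KO GMP replicate 1 (the joint omission also chosen after seeing the data), and −1.78 and −1.80 at the lowest. In the average, Procr was −0.20 with normexp, −0.28 with median scaling, −0.42 (without KO GMP replicate 1) to 0.73 with an array left out and −0.30 without both arrays, and Robo4 was −0.33 with normexp. In the difference of differences, Eng was −0.09 with quantile normalization, −0.17 with median scaling, −0.57 without KO GMP replicate 1, −0.07 without WT GMP replicate 2, −0.85 without KO LSK replicate 1, −0.35 without WT LSK replicate 1 and at most 1.07, and Fgd5 was 0.34 with normexp, 0.07 without KO GMP replicate 1 and 0.12 without KO LSK replicate 1, and at least −1.13. Eng was 0.01 between WT GMP and WT LSK without WT LSK replicate 2 (at least −0.90), and between KO GMP and KO LSK it was 0.05 with median scaling, 0.13 without KO GMP replicate 1 and 0.41 without KO LSK replicate 1 (at least −1.52). Over all features, the 381 called lower in WT GMP were 53 with quantile normalization, 198 with normexp, 125 with median scaling, 158 without the filter, 230 with the stricter filter, 943 with the WT arrays alone and 1441 with array weights. Between KO GMP and KO LSK the main fit called 0 features, whereas normexp called 61 lower and 787 higher. The KO arrays alone called 111 lower and 19 higher there. Median scaling moved the median difference of all features between KO LSK and WT LSK to −0.457, against 0.115, and between KO GMP and KO LSK to 0.538, against −0.069. Weak signal limits Tek and Slamf1 most, in WT GMP and on KO LSK replicate 2.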
